A study of Homo sapiens with 12 samples.

Results

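The long arm of human chromosome 20, from 30 Mb to its end at 64.4 Mb on hg38, was examined for the histone variant H2A.Z and its acetylated form, H2A.Zac, in K562, a leukemia line derived from human chronic myeloid leukemia. Members were all listed regions on chromosome 20 with a midpoint between positions 30000001 and 64444167, which gave 2549 of the 158028 regions listed over the genome. The stretch had been selected on the data themselves, because nearly all H2A.Z regions that changed in its 5-Mb windows had changed in the same direction. The counts of lost and gained regions are therefore a description of the stretch and carry no test. Both lines carried a homozygous degradation tag (dTAG) on endogenous EP400, were treated with 500 nM dTAGV-1 for 24 h to remove that protein, and expressed exogenous EP400 from the AAVS1 locus. The WT line expressed wild-type EP400, and the ΔTRRAP line expressed EP400 without the SANT and HD domains, through which TRRAP is anchored. ChIP-seq had been made for H2A.Z, H2A.Zac and input in 2 biological replicates per line, 12 libraries in all. The submitters had compared the merged replicates of the lines, so no value per replicate and no read depth stand behind the numbers here, and the spread between replicates is not known. Each line was 1 clone, so the form of EP400 and any other difference between the clones, including the number of copies of a chromosome arm, cannot be told apart. The input libraries were not analysed here.

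H2A.Z replaces H2A in nucleosomes that flank active promoters and sit in enhancers. In human cells the EP400 motor of the TIP60 complex and the SRCAP complex exchange it into chromatin, and the Tip60 acetyltransferase of the same complex as EP400 acetylates it. TRRAP, the large subunit that the ΔTRRAP form cannot hold, is the surface through which transcription factors such as MYC and E2F contact the complex. Chromosome 20q carries housekeeping and cell cycle genes beside imprinted genes, neuronal genes and clusters of genes for secreted antimicrobial and seminal proteins.

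A region was called lost when its signal was higher in the WT line, gained when it was higher in the ΔTRRAP line, and unchanged otherwise. The evidence for a change was a log10 likelihood ratio, which was above 3 for every changed region and below 3 for every unchanged one. A higher ratio means stronger evidence and rises with both the size of the difference and the number of reads, so it is not a fold change.

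The DNA at strong calls of each kind is shown first, because these calls fell on alternative starts within genes, on first starts and on a distal site. For promoters, the 200 bases before a RefSeq start (GRCh38.p14) are printed on the strand of the gene. For the lost H2A.Z region of highest ratio, the central 200 bases are printed on the plus strand of hg38. Capitals mark each CG pair, the site of DNA methylation.
GNAS: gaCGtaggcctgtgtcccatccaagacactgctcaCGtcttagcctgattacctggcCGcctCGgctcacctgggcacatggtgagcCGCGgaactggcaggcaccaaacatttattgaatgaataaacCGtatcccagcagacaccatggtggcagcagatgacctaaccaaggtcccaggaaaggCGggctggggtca
L3MBTL1: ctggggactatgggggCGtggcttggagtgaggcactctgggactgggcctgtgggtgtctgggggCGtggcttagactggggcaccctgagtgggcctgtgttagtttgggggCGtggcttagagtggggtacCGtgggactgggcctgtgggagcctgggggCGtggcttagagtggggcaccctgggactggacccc
MCTS2: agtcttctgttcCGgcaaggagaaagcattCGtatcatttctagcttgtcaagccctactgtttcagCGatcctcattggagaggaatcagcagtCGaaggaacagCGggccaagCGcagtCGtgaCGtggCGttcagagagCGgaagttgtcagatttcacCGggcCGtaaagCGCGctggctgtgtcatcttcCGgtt
PLTP: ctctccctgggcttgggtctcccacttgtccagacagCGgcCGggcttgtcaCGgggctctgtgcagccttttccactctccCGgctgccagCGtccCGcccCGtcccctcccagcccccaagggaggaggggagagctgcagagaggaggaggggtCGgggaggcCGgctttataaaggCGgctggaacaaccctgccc
ID1 upstream: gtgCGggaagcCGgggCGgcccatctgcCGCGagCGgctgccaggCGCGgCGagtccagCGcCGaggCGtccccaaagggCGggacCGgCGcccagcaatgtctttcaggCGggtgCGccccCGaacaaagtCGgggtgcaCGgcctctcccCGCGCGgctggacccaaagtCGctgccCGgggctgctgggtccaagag
TP53RK: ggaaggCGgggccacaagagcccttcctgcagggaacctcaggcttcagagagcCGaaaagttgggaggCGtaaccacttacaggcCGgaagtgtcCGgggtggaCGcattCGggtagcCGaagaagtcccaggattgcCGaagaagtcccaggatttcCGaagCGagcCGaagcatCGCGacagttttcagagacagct
SPATA2: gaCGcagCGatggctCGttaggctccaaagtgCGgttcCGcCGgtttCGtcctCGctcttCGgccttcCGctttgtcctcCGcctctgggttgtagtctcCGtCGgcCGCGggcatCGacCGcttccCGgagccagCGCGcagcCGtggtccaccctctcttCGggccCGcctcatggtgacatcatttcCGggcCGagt

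GNAS (chr20:58888213-58888412, plus strand), L3MBTL1 (chr20:43514241-43514440, plus), MCTS2 (chr20:31547179-31547378, plus) and PLTP (chr20:45912156-45912355, minus) lay at or in lost H2A.Zac promoter regions with ratios of 120.2, 83.5, 82.6 and 45.6. They were taken from the genes with a matched RefSeq window, and GATA5, at 83.6, is described with the other lost promoters. The site upstream of ID1 (chr20:31587944-31588143) was the centre of the most strongly lost H2A.Z region. TP53RK (chr20:46689445-46689644, minus) lay at the most strongly gained H2A.Zac promoter, and SPATA2 (chr20:49915530-49915729, minus) lay in the widest unchanged H2A.Z promoter region. The runs from GNAS and L3MBTL1 held 8 and 5 CG pairs, those from PLTP and MCTS2 held 10 and 15, that from TP53RK 14, and those from SPATA2 and the site upstream of ID1 25 each. Over all 21613 RefSeq windows of protein-coding genes, the same 200 bases held a median of 14 CG pairs. The L3MBTL1 run repeated TGGGGGCGTGGCTT 4 times, a repeat noticed after the sequence was seen, and on either strand 3 of the 21613 windows held those letters at all. Motifs of 4 factor families were searched on both strands. The E-box, as bound by MYC, was CACGTG. The E2F motif was TTTGGCGC and, as the other form, TTTCCCGC. The GATA motif was AGATAA, and the AP-1 motif was TGANTCA. No motif contains another. None of the 7 runs held any of them, and of all windows of that length 17.1% held at least 1.

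Over the whole stretch, loss outnumbered gain for both marks, and far more so for total H2A.Z than for its acetylated form. Of 1082 H2A.Z regions, 509 were lost, 8 were gained and 565 were unchanged. The lost share was 47.0% (Wilson 95% interval 44.1 to 50.02), against a background of 19.8% over the genome, and the gained share was 0.739% (0.375 to 1.45), against 14.1%. Of 1467 H2A.Zac regions, 688 were lost, 130 were gained and 649 were unchanged. The lost share was 46.9% (44.4 to 49.5), with a background of 25.9%, and the gained share was 8.86% (7.51 to 10.4), against 26.3%. The stretch had been selected for this pattern, so nothing is read from these shares beyond their size. All intervals here cover counting error alone.

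**Figure D1:**
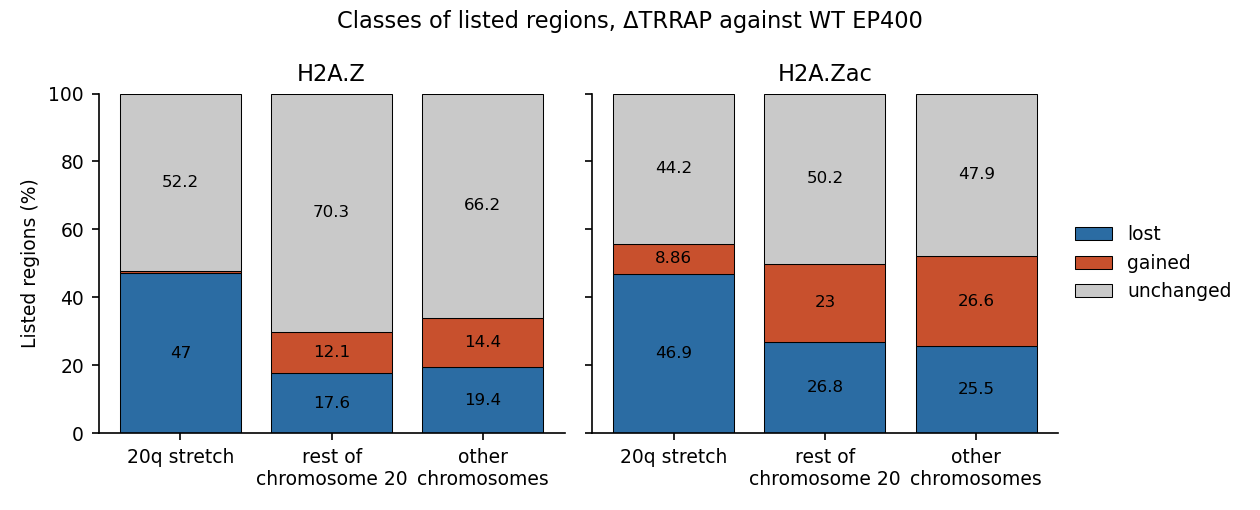
Share of listed regions (%) that were lost (blue), gained (red) or unchanged (grey) in the ΔTRRAP line against the WT line, for H2A.Z (left) and H2A.Zac (right), in the 20q stretch, the rest of chromosome 20 and the other chromosomes. The gained part of the H2A.Z bar, 0.739%, is barely visible in the stretch, whereas 8.86% of H2A.Zac regions there were gained.

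Pooled over its length, the rest of chromosome 20 had another balance. Outside the stretch, 70 H2A.Z regions were lost and 48 gained, so that gained regions made up 40.7% of changed regions, as against 1.55% (0.786 to 3.02) inside it and 42.6% on the other chromosomes. The window just before the stretch, 25 to 30 Mb, was already one-sided, with 14 H2A.Z regions lost and 1 gained (6.67% of changed), close to the 76 lost and 5 gained (6.17%) of 30 to 35 Mb. For H2A.Zac the same share was 15.9% (13.5 to 18.6) inside, 46.1% in the rest of chromosome 20 and 51.0% on the other chromosomes. Every 5-Mb window of the stretch had a lost H2A.Z share between 42.7% and 54.2%, whereas the windows before it ranged from 11.4% to 25.5%. Among 448 windows elsewhere in the genome with at least 50 H2A.Z regions, the median lost share was 17.4%, and 9 windows were at or above the lowest window of the stretch. For H2A.Zac, the lost share of the windows of the stretch ran from 37.2% to 55.2%, and 32 of 516 windows elsewhere were at or above that lower value.

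The start of the stretch lay beside the centromere, and its first 1 Mb held 27 H2A.Z and 45 H2A.Zac regions. The last H2A.Z regions before 30 Mb were an unchanged one at chr20:29883611-29884650 and, within it, a lost one at chr20:29883696-29883970 with a ratio of 3.77. The first one inside was a lost region at chr20:30288306-30288588 with a ratio of 5.66, next to the long noncoding RNA gene LINC01597. For H2A.Zac, the last region outside was unchanged, at chr20:29884253-29884733, and the first inside was lost, at chr20:30227194-30229138, with a ratio of 61.6. The first 1 Mb of the stretch, which contains no protein-coding gene start, held 5 of its 8 gained H2A.Z regions and 14 of its 130 gained H2A.Zac regions. In that first 1 Mb, 7 H2A.Z regions were lost and 5 gained. After it, 502 were lost and 3 gained, which is 0.594% gained among the changed. Only 3 gained H2A.Z regions were thus listed beyond 31 Mb.

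From there to the end of the chromosome, lost H2A.Z regions followed each other with few breaks. A run of 93 changed regions from 31.4 to 36.1 Mb, a run of 137 from 36.2 to 46.8 Mb and a run of 270 from 47.4 to 64.3 Mb were all lost, with no gained region between their members. In 1-Mb bins, 34 of 35 held a lost H2A.Z region, 4 held a gained one and 0 held more gained than lost. The bin with the most lost H2A.Z regions was 53 to 54 Mb, with 56 lost, 0 gained and 40 unchanged, which covers TSHZ2 and the start of ZNF217. For H2A.Zac, 26 of 35 bins held a gained region and 2 held more gained than lost. The longest run of lost H2A.Zac regions was 49, from 63.0 to 64.3 Mb.

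**Figure D2:**
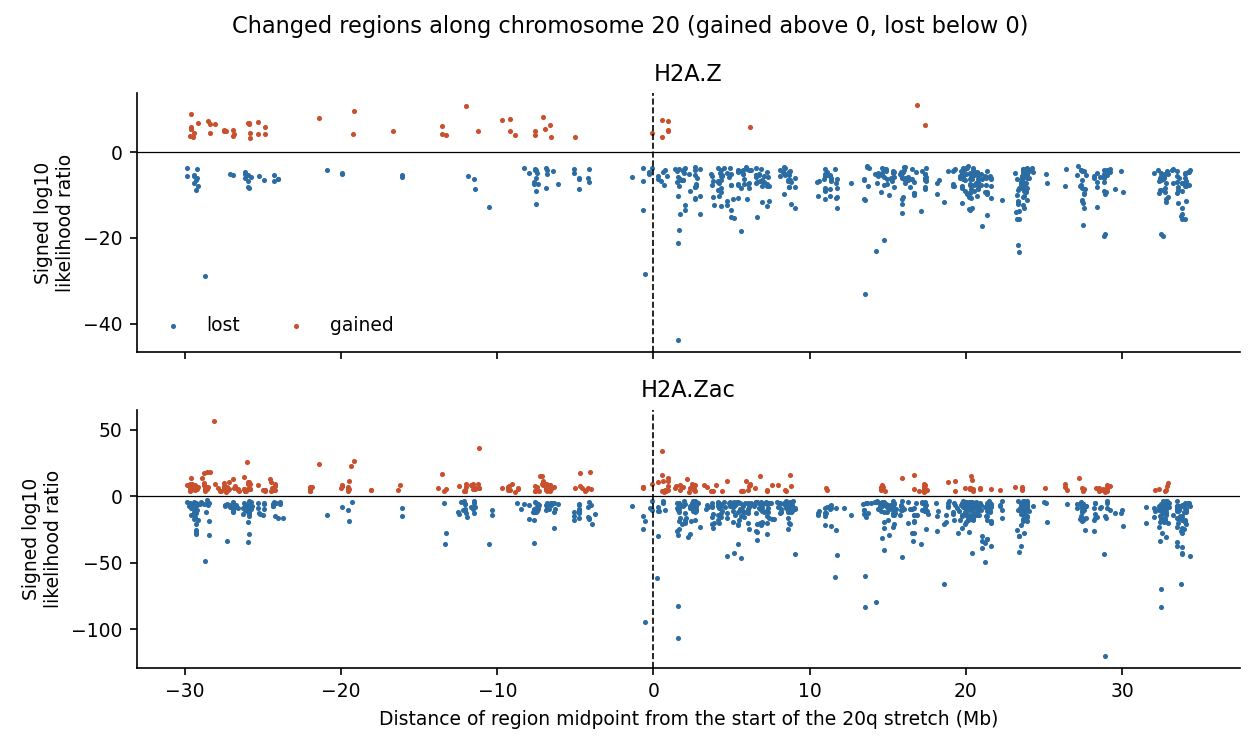
Signed log10 likelihood ratio of each changed region (gained above 0, lost below 0) against its distance in Mb from the start of the 20q stretch (dashed line), for H2A.Z (top) and H2A.Zac (bottom) on all of chromosome 20. To the right of the line lost H2A.Z regions are dense and 8 gained ones remain, 5 of them within the first 1 Mb, while 130 gained H2A.Zac regions are scattered along the arm.

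Loss of H2A.Z took in broad regions as well as narrow ones. In the stretch, 47.4% of H2A.Z regions up to 500 bp, 48.0% of those of 500 to 1000 bp and 46.0% of those of 1000 to 2000 bp were lost. On the other chromosomes the lost share fell from 24.7% through 18.4% to 13.0% over the same classes. Only 18 H2A.Z regions of the stretch were wider than 2000 bp, and 5 of them were lost. For H2A.Zac, the lost share in the stretch was 40.0% up to 500 bp, 52.6% at 500 to 1000 bp, 48.1% at 1000 to 2000 bp and 41.7% above, and on the other chromosomes it lay between 22.5% and 26.7%.

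**Figure D3:**
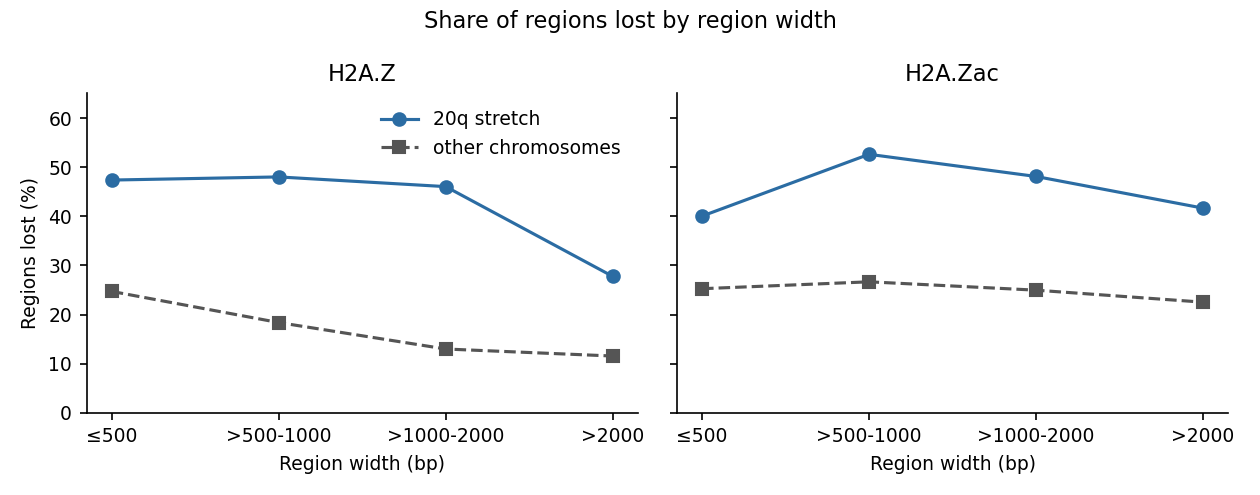
Share of regions lost (%) by region width in bp, for H2A.Z (left) and H2A.Zac (right), in the 20q stretch (blue circles) and on the other chromosomes (grey squares). The H2A.Z share stays between 46.0% and 48.0% up to 2000 bp in the stretch and declines from 24.7% to 13.0% on the other chromosomes.

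Loss was more frequent away from gene starts. Within 1 kb of the start of any annotated gene, 140 of 431 H2A.Z regions were lost (32.5%), 2 were gained and 289 were unchanged. Farther away, 369 of 651 were lost (56.7%) and 6 were gained. For H2A.Zac, 188 of 494 regions near a start were lost (38.1%) and 44 were gained, and 500 of 973 distal regions were lost (51.4%) and 86 were gained. Over the genome the lost shares near and away from starts were 10.2% and 25.1% for H2A.Z and 16.6% and 30.6% for H2A.Zac, so the contrast was not confined to 20q. Of the 509 lost H2A.Z regions, 64 touched an exon of a protein-coding gene, 122 lay in introns and 323 lay between genes, whereas 194 of the 565 unchanged ones touched an exon. The median ratio of lost regions was 6.53 for H2A.Z, with 5.95 as the genome median, and for H2A.Zac it was 9.52, with 8.27. Lists of different classes can overlap. An unchanged region of the same mark was touched by 185 lost H2A.Z regions (36.3%) and by 1 of the 8 gained ones. For H2A.Zac, 255 lost regions (37.1%) and 74 of the 130 gained ones (56.9%) touched an unchanged region. A listed region is therefore not the same as a peak.

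Where H2A.Z was lost, its acetylation mostly was too. Of the lost H2A.Z regions, 66.2% were covered over at least 25% of their length by a lost H2A.Zac region, beside 65.9% over the genome, and 0.393% by a gained one. Unchanged H2A.Z regions were covered by a lost H2A.Zac region in 32.4% of cases in the stretch, against 19.5% over the genome, and by a gained one in 4.78%, against 25.1%. Unchanged H2A.Zac regions lay on a lost H2A.Z region in 13.9% of cases, against 2.72% over the genome. Gained H2A.Zac regions differed in what lay under them. Only 38 of the 130 (29.2%) lay on an H2A.Z region of any class, against 57.1% over the genome, and 5 lay on a gained one.

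The gained H2A.Zac regions of the stretch were narrow, with a median width of 459 bp against 664 bp for gained regions over the genome, and weak, with a median ratio of 5.87 against 6.87. Of the 130, 103 lay within 1 kb of an unchanged H2A.Zac region (79.2%, against 70.8% over the genome) and 14 within 1 kb of a lost one (10.8%, against 6.73%). An E-box, CACGTG, was found in 4.62% of them and in 21.4% of lost H2A.Zac regions, whose median width was 771 bp. Over the genome the same shares were 8.77% and 18.4%. AGATAA was found in 23.1% of gained and 29.8% of lost H2A.Zac regions, with genome shares of 36.4% and 30.8%. TGANTCA was found in 22.3% and 22.4%, with genome shares of 25.3% and 21.7%. The E2F letters were found in 0 of the 130 gained and 4.36% of the lost ones, with genome shares of 2.54% and 1.97%. The widths of the classes differ, and a wider region has more room for a match. In the central 300 bp alone, the E-box was found in 10.8% of lost H2A.Zac regions. Gained regions were not searched in that way, so the contrast between the classes was not examined at equal width.

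The gained H2A.Z regions can be named in full. A group of 5 lay between genes at 30.5 to 30.9 Mb, at least 342 kb from the nearest protein-coding start, that of the defensin gene DEFB115. The widest of the group, chr20:30532862-30534127 with a ratio of 7.43, lay wholly within the gained H2A.Zac region of highest ratio in the stretch, chr20:30532550-30534320, at 34.0. The other gained regions of that group were chr20:30912302-30912602 (ratio 7.27), chr20:30913366-30914043 (5.26), chr20:30915225-30915678 (4.83) and chr20:30530963-30531284 (3.45). Of the remaining ones, the strongest was chr20:46894569-46895849 over exon 1 and the start of EYA2, with a ratio of 11.0. EYA2 encodes a phosphatase that acts as a transcription cofactor. No H2A.Zac region of any class lay on it, and the only acetylation change within 1 kb of an EYA2 start was a gained region of ratio 3.84 at an internal start, chr20:46990504-46990965. Deeper in the EYA2 body, 255 kb downstream of its start, H2A.Z was lost with a ratio of 13.7 (chr20:47149889-47150798) and H2A.Zac with a ratio of 36.2, so both directions occurred in the same gene. A further H2A.Zac region of EYA2, 286 kb downstream, was lost at 5.20. A gained region of ratio 5.77 lay at an internal start of EPB41L1, a membrane skeleton protein gene (chr20:36154768-36155025), within a gained H2A.Zac region of ratio 9.43. At the upstream start of EPB41L1 both marks were lost, with ratios of 7.099 and 7.71. The last, chr20:47365119-47365370, lay 8.23 kb upstream of ZMYND8, which encodes a reader of acetylated histones, with a ratio of 6.28.

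Among the gained H2A.Zac regions, the strongest at a gene was over exon 1 and the start of TP53RK, the kinase of the KEOPS complex that modifies transfer RNA. Its ratio was 16.2 (chr20:46689313-46690103), and the H2A.Z regions within 1 kb of the start of TP53RK were unchanged, while H2A.Z regions slightly farther upstream were lost. A region in an intron of ACTR5, a subunit gene of the INO80 remodeler, was gained with a ratio of 15.7 (chr20:38756975-38757952), 8.52 kb downstream of a start at which both marks were lost, H2A.Z at 6.40 and H2A.Zac at 8.96. Further gains lay in exon 8 of SOGA1 (ratio 15.1), at a start of the noncoding RNA gene LINC01271 (14.9), in an intron of the cap methyltransferase gene PCIF1 close to its start (14.1) and in an intron of BMP7 (13.4). The other gains among the 10 of highest ratio were a pair between genes in the first 1 Mb (16.2 and 13.4) and exon 16 of TM9SF4 (12.9).

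At the level of genes, most promoters in the stretch that had a region kept or lost it. Of 360 protein-coding genes with a start in the stretch, 246 had an H2A.Z region within 1 kb of a start. A gene was counted as lost when any lost and no gained region lay there, even beside unchanged regions. It was counted as unchanged only when every region there was unchanged. H2A.Z was lost in that sense at 118 of the 246 (48.0%, interval 41.8 to 54.2), against 12.5% of listed promoters over the genome. It was gained at EYA2 alone, against 22.8% over the genome, and both lost and gained at EPB41L1 alone. The remaining 126 were unchanged. H2A.Zac was listed at 252 genes, with 145 lost (57.5%, interval 51.4 to 63.5), against 20.3% over the genome, 15 gained (5.95%), against 47.9%, 19 with a region of each kind and 73 unchanged. In the rest of chromosome 20, by contrast, 4 of 110 listed H2A.Z promoters were lost and 22 were gained. Neighbouring genes can share a promoter region, as CPNE1 and RBM12, PSMA7 and SS18L1, or OPRL1 and RGS19 do, so genes are not independent of each other.

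Taking both marks, 83 genes lost both, 55 lost H2A.Zac over unchanged H2A.Z, 17 lost H2A.Z under unchanged H2A.Zac, and 55 were unchanged in both. Genes that lost both marks were 23.1% of the 360, against 5.38% over the genome, and those that lost H2A.Zac over unchanged H2A.Z were 15.3%, against 6.55%. Those that lost H2A.Z under unchanged H2A.Zac were 4.72%, against 0.629%, and those unchanged in both were 15.3%, against 10.6%. No region of either mark was listed at 101 genes (28.1%), beside 28.3% over the genome.

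**Figure D4:**
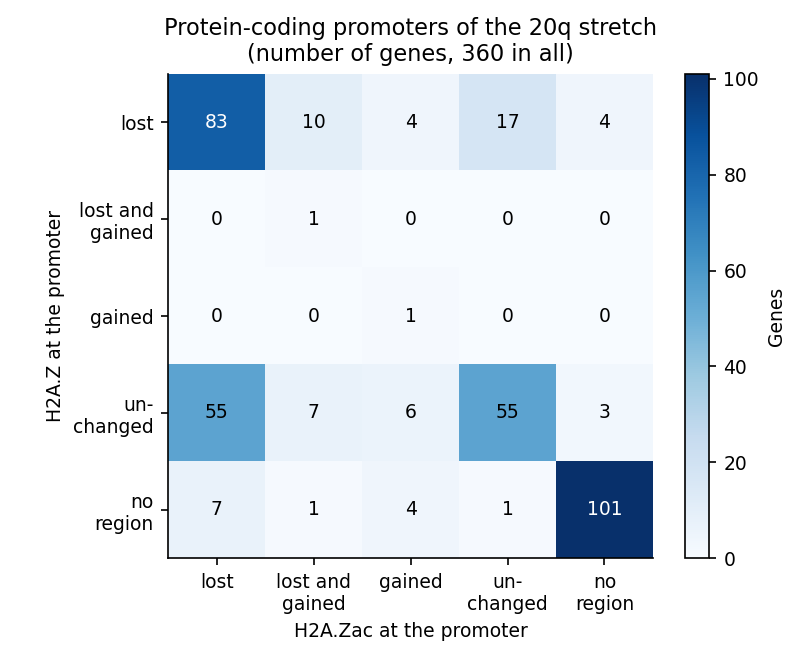
Number of protein-coding genes of the 20q stretch by the class of H2A.Z (rows) and H2A.Zac (columns) regions within 1 kb of a start, 360 genes in all. The largest groups are 101 genes with no region, 83 that lost both marks, and 55 each that lost H2A.Zac over unchanged H2A.Z or were unchanged in both.

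RefSeq promoter windows of 300 bases were matched for 247 of the 360 genes, in 324 windows. The E-box was found in 9 of 78 windows of genes that lost both marks (11.5%), in 2 of 55 of genes unchanged in both (3.64%) and in 8.35% of all windows. An E2F motif was found in 5 of the 78 (6.41%), in 5 of the 55 (9.09%), in 0 of the 70 windows of genes without a region and in 2.83% of all windows. AGATAA was found in 1 of the 78 (1.28%), in 2 of the 55 (3.64%), in 11 of 70 windows of genes without a region (15.7%) and in 7.83% of all windows. The median GC content was 67.5% in the windows that lost both marks, 67.7% in the unchanged ones and 55.8% in those without a region.

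The highest H2A.Zac ratio in the stretch, 120.2, belonged to GNAS, which encodes the stimulatory G protein alpha subunit and several imprinted transcripts from alternative starts. It ranked at 5 among the 24482 lost H2A.Zac regions of the genome. The region, chr20:58888301-58891014, began just before the internal RefSeq start at 58888413, whose upstream bases are printed above, and held 15 annotated transcript starts of GNAS. H2A.Z was lost within it at chr20:58890319-58890839, with a ratio of 19.1. Immediately downstream, the H2A.Z region chr20:58890840-58892923, with 11 further GNAS starts, was unchanged at 0.511, and 2 narrow H2A.Zac regions there were gained at 4.23 and 3.404. Lost and unchanged calls thus met between neighbouring starts of GNAS. A further pair of GNAS starts, 12.6 kb downstream of the first, lost both marks at chr20:58852278-58853119, with ratios of 43.5 for H2A.Zac and 9.17 for H2A.Z.

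L3MBTL1, which encodes a chromatin-compacting reader of methylated histones, showed the same kind of site. An H2A.Zac region over exons 4 and 5, chr20:43514377-43515286, was lost with a ratio of 83.5 and held 18 annotated starts. The H2A.Z region inside it, chr20:43514494-43514947, was lost at 33.2, rank 4 among the 12592 lost H2A.Z regions of the genome. The start farthest upstream lost H2A.Z at 6.36, and no H2A.Zac region was listed there. MCTS2, an intronless gene within an intron of HM13, lost H2A.Zac with a ratio of 82.6 (chr20:31546505-31547911) with no H2A.Z region listed, and an internal start of its host HM13, a signal peptide peptidase gene, lay within 1 kb of the same region. At the first start of HM13, H2A.Zac was lost at 5.27 and H2A.Z at 4.47. GNAS, L3MBTL1 and MCTS2 are all imprinted, which was noticed after their values were seen. The imprinted gene NNAT had no region at its start, and BLCAP, the gene around it, was unchanged in both marks at its start, at 0.594 and 0.688, with a lost H2A.Zac region of ratio 4.84 farther upstream (chr20:37529216-37529628).

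GATA5, a GATA factor gene of heart and gut, lost H2A.Z over its start at 19.2 (chr20:62475670-62476860) and H2A.Zac at 83.6 (chr20:62475526-62477827). Within 25 kb of GATA5, all 5 H2A.Z and all 8 H2A.Zac regions listed were lost, H2A.Z from 4.82 to 19.2 and H2A.Zac from 13.8 to 83.6. The second strongest of these was a distal region of 3681 bp, chr20:62493502-62497182, at 69.6, upstream of the start. PLTP, the phospholipid transfer protein gene, lost H2A.Z at 14.2 and H2A.Zac at 45.6 over its start. PROCR, the endothelial protein C receptor gene, lost both at an internal start, with 15.4 and 42.6, while the regions at its first start were unchanged. PTK6, SLA2, COL9A3 and KCNG1 completed the 10 genes of highest H2A.Zac ratio among the 94 genes with a lost region of each mark, which include HM13 through the region it shares with MCTS2, with H2A.Zac ratios between 29.8 and 34.4 and H2A.Z ratios between 6.30 and 15.02.

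The most strongly lost H2A.Z region of all, at a ratio of 43.8, lay between genes, 16.6 kb upstream of ID1, a helix-loop-helix inhibitor of differentiation (chr20:31587447-31588641). It ranked at 3 among lost H2A.Z regions of the genome, and the H2A.Zac region over it was lost at 106.6, the second highest ratio of the stretch. Closer to ID1, H2A.Z regions at 8.66 kb upstream and 7.81 kb downstream were lost at 21.1 and 18.2. The nearest H2A.Z regions to ID1 were a lost one 1.07 kb upstream, at 4.03, and unchanged ones 2.99 and 5.10 kb downstream, at 1.14 and 1.01. The H2A.Zac regions flanking the ID1 start itself were unchanged, at 0.515 and 0.812, and no H2A.Z region was listed within 1 kb of that start. An upstream site of GDAP1L1, 11.5 kb from its start, lost H2A.Z at 23.0 and H2A.Zac at 79.3. Gene bodies could hold many such sites. In TSHZ2, a zinc finger gene of 523 kb, 14 H2A.Z regions were lost, 0 were gained and 5 were unchanged, and for H2A.Zac 7 were lost, with ratios from 3.59 to 41.7, 1 was gained at 6.68 and 7 were unchanged. The first lost region in TSHZ2 lay 189 kb downstream of its start. The gene ENSG00000285382 held 7 lost and 3 unchanged H2A.Z regions and 17 lost and 10 unchanged H2A.Zac regions, and the overlapping C20orf203 held 5 lost and 1 unchanged and 11 lost and 6 unchanged. GNAS held 9 lost and 8 unchanged H2A.Z regions, and 3 lost, 2 gained and 4 unchanged H2A.Zac regions. BCAS1 held 6 lost and 5 unchanged H2A.Z regions, and 5 lost and 3 unchanged H2A.Zac regions. ZBTB46, with the same total of 11 lost regions, held 5 lost and 1 unchanged H2A.Z regions, and 6 lost and 2 unchanged H2A.Zac regions. ZMYND8, singled out after its values were seen, was the opposite case, with 11 gained, 0 lost and 6 unchanged H2A.Zac regions in its body and no H2A.Z region of any class. The gained ones at ZMYND8 had ratios from 3.52 to 8.96, and the gene with the next most gained H2A.Zac regions, NOL4L, held 4 gained, 4 lost and 9 unchanged.

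Of the 55 genes unchanged in both marks, some had broad promoter regions. The widest unchanged H2A.Z promoter region was the 2569 bp at SPATA2, a partner of the deubiquitinase CYLD, followed by 2194 bp at CEP250, a centrosome linker gene, 1946 bp shared by the proteasome gene PSMA7 and the chromatin remodeler gene SS18L1, and 1886 bp at MROH8. None of these genes had a changed region of either mark at a start. The ratios at SPATA2 were 0.609 for H2A.Z and 0.512 for H2A.Zac, and at CEP250 0.450 and 0.693. AURKA and TPX2, a mitotic kinase and its activator, and ASXL1, a polycomb-associated gene mutated in myeloid leukemia, were unchanged in both marks, with all ratios at or below 0.973. MRGBP, which encodes a subunit of the TIP60 complex itself, kept its H2A.Z regions unchanged, at 0.433 and 0.180, and had a single H2A.Zac loss of 284 bp at 3.61 inside an unchanged region of 1822 bp. Farther out, 1.85 kb upstream of the MRGBP start, an H2A.Zac region was gained at 4.70. The promoter of the DNA methyltransferase gene DNMT3B also lost H2A.Zac, at 5.16, with H2A.Z unchanged.

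Other genes had a lost and a gained region among their starts, either at 1 promoter or at starts far apart. BCL2L1, the BCL-XL survival gene, lost H2A.Z at 6.36 and H2A.Zac at 16.3 upstream of its start and gained H2A.Zac at 4.67 downstream of it. TOP1, the DNA topoisomerase gene, lost H2A.Zac at 12.5 upstream and gained it at 6.13 over the start, with H2A.Z unchanged. At MANBAL a loss of 28.6 lay upstream of a gain of 4.38, with an unchanged region over the start. In TM9SF4, by contrast, the loss of 16.6 lay at the first start and the gain of 12.9 at an internal one in exon 16. The genes with a lost and a gained H2A.Zac region at any of their starts further included NOL4L, ITCH, ENSG00000289720, SPAG4, CPNE1, RBM12, EPB41L1, DLGAP4, PLCG1, PCIF1, ZNF217, CTCFL, STX16, STX16-NPEPL1 and GNAS. The 15 genes with a gain alone were TP53RK, TP53INP2, ZMYND8, TUBB1, RALY, FAM210B, RAB22A, RTF2, NCOA3, ATP5F1E, CHMP4B, RBM39, EYA2, ZNFX1 and KIF3B. Among these, CHMP4B, KIF3B, ZNFX1 and FAM210B also had a lost H2A.Z region within 1 kb of a start, at 6.75, 5.18, 3.98 and 7.79. The gained H2A.Zac region lay on unchanged H2A.Z over 100% of its length at CHMP4B, 99.1% at KIF3B and 100% at ZNFX1. At ZNFX1, 20.9% of it also lay on lost H2A.Z, and at FAM210B it lay on no H2A.Z region.

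Gene groups of 20q are given beside the shares over all listed promoters of the stretch, 48.0% lost for H2A.Z and 57.5% for H2A.Zac. Among 14 mitosis and cell cycle genes, H2A.Z was lost at 4 and unchanged at 9, and H2A.Zac was lost at 5, gained at 1 and unchanged at 7. The H2A.Z losses had ratios of 6.75 at CHMP4B, 5.19 at E2F1, 5.09 at DSN1 and 3.46 at MYBL2, and the strongest H2A.Zac loss was 11.5 at RBL1, a retinoblastoma family gene. At E2F1 the lost region lay upstream of an unchanged one over the start. Among 28 chromatin and transcription genes, H2A.Z was lost at 11 and unchanged at 15, and H2A.Zac was lost at 12, gained at 2, both at 3 and unchanged at 11. After L3MBTL1, the highest H2A.Zac ratios in that list were 18.0 at the elongation factor gene TCEA2, 12.5 at TOP1 and 11.7 at PHF20. H2A.Z was lost at TCEA2 at 15.6, at ACTR5 at 6.40, at ZNF217 at 6.36 and at PHF20 at 6.32. Among 14 genes listed as mitochondrial and proteasome, H2A.Z was lost at 4 and unchanged at 9, and H2A.Zac was lost at 4, gained at 1 and unchanged at 7. The highest H2A.Zac ratios in that list were losses of 12.7 at AHCY, 11.5 at UQCC1, a mitochondrial assembly factor gene, and 7.06 at GSS. AHCY and GSS encode cytosolic enzymes, and PIGU, PIGT and DPM1 encode enzymes of the endoplasmic reticulum, so the list is one of metabolic and housekeeping genes more widely. Among its 4 H2A.Zac losses, UQCC1 alone is mitochondrial.

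In the list of 20 RNA processing and translation genes, H2A.Z was lost at 8 and unchanged at 11, while H2A.Zac was lost at 12, gained at 2, both at 2 and unchanged at 4. CTNNBL1, a spliceosome-associated gene, lost H2A.Zac at 17.2 and STAU1, an RNA-binding protein gene, at 13.7, and PCIF1 lost H2A.Z at 12.1. Of 18 kinase, survival and signalling genes, 11 lost H2A.Z and 4 were unchanged, and H2A.Zac was lost at 6, gained at 2, both at 4 and unchanged at 3. SRC lost H2A.Z at 5.68 and H2A.Zac at 12.0, and PTK6 lost them at 9.43 and 34.4. Of 14 blood cell genes, H2A.Z was lost at 5, unchanged at 4 and not listed at 5, and H2A.Zac was lost at 8, gained at 1, unchanged at 3 and not listed at 2. The adaptor gene of lymphocytes SLA2 lost them at 15.02 and 32.8 and RGS19 at 11.4 and 11.9. TUBB1, the tubulin of platelets, gained H2A.Zac at 8.70 with no H2A.Z region. Of 4 noncoding RNA genes, SNHG17 lost both marks at 3.74 and 6.47, SNHG11 lost H2A.Zac at 5.82, and NORAD was unchanged. ZFAS1 had a lost H2A.Z region at 3.98 and a gained H2A.Zac region at 3.66 that overlapped it in part.

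The neuronal genes split without a middle class. Of 17, 10 had no region of either mark, among them CHRNA4, 6 lost both, and EPB41L1 had both directions. None was unchanged. KCNG1 and KCNS1, genes of modifying potassium channel subunits, lost H2A.Zac at 29.8 and 28.9, and OPRL1 at 20.6. The clusters of defensin, BPI-fold and WFDC genes, 32 in all, had few listed regions within 1 kb of a start. An unchanged H2A.Z region lay at 2, DEFB123 and WFDC3, and an unchanged H2A.Zac region at WFDC3. The WFDC3 start, at 45791932, lay beside that of the chromatin list gene DNTTIP1, at 45791954, and the 1297 bp H2A.Z region was common to both. Away from the starts, WFDC3 held 1 lost region of each mark and WFDC5 held 1 lost H2A.Zac region, and gained H2A.Zac regions lay 2.37 kb from the start of DEFB119 and 5.44 kb from that of DEFB121. The lists were chosen with the results in view, and their counts are not tested against each other.

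**Figure D5:**
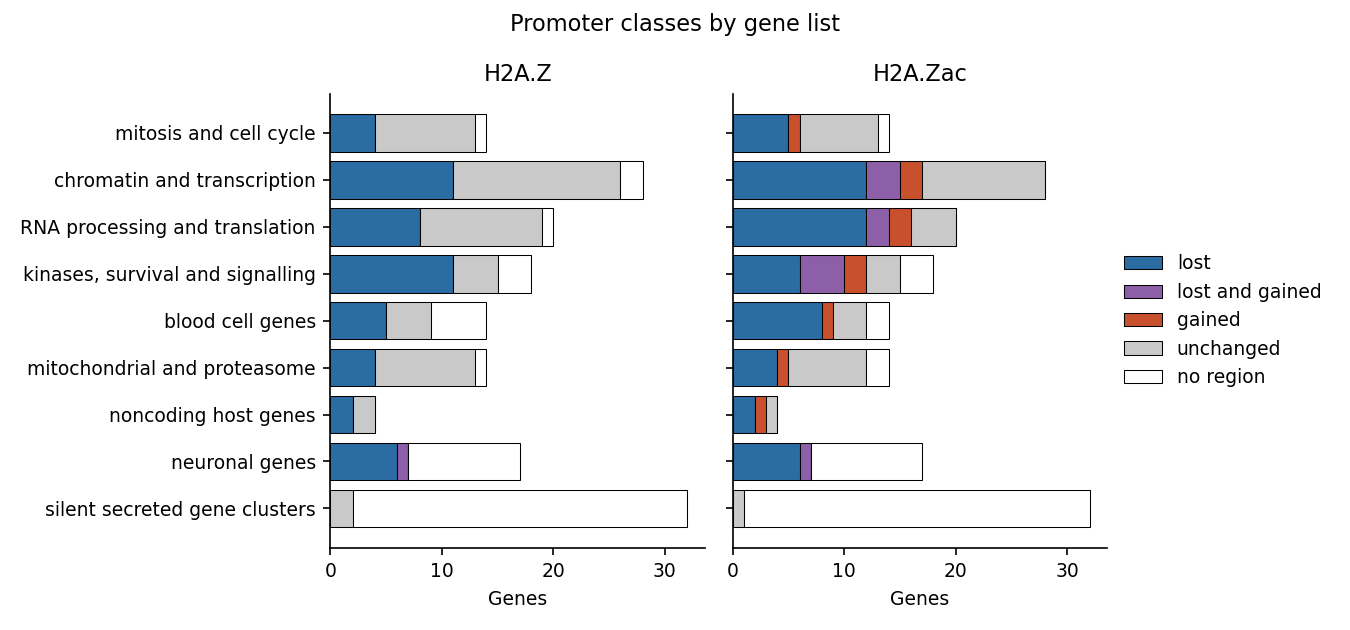
Number of genes in each of 9 lists by promoter class, lost (blue), lost and gained (purple), gained (red), unchanged (grey) or no region (white), for H2A.Z (left) and H2A.Zac (right). Unchanged promoters outnumber lost ones for H2A.Z in the mitosis list (9 against 4), lost ones outnumber unchanged in the kinase list (11 against 4), and none of the 17 neuronal genes is unchanged.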

How the data were processed

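ChIP-seq of H2A.Z, H2A.Zac and input was described by the labels for 12 libraries of K562 cells, 2 replicates in each of 6 groups. The authors aligned reads to hg38 with Bowtie2 (2.4.5) and called and compared peaks with MACS2 (2.2.7.1), replicates merged, at a cutoff of 3, and then kept compared regions that overlapped reproducible peaks. The score deposited by the authors for each region is a log10 likelihood ratio. The 6 lists hold no reads, replicate values or depth, so the depth is unknown and no test between lines could be made. A line in the deposited lists is a region and not a peak, since lists overlap. All regions lay within the hg38 chromosomes. Regions were counted by class and midpoint with Python (3.11.15), pandas (2.3.3) and scipy (1.17.1, Wilson 95% intervals). Genes and starts came from GENCODE 44, and a promoter was 1 kb on either side of any annotated start of a protein-coding gene. Marks were called overlapping when 25% of a region was covered. Interval functions were tested on 400 simulated regions, with 0 errors. All 921 RefSeq promoter windows on chromosome 20 were identical to hg38. The genes named are every gained H2A.Z region, the 10 gained H2A.Zac regions and the 10 doubly lost genes of highest ratio, the 5 widest unchanged promoters, genes with a gained promoter region, the 5 gene bodies with the most lost regions, 12 genes fixed by name and up to 4 genes per list, with further members given as examples. Among gene bodies, ZBTB46 tied with BCAS1 and is given too. Members, lists and tests were chosen with earlier results of these data known. Alternatives tried were ratio cutoffs, base pairs, merging, a width minimum, other stretch starts, each window left out, other promoter definitions and other overlap minimums. Some items are not reported here.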

Additional observations from a re-analysis of the deposited data

How the results depend on the processing

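Lost regions outnumbered gained ones for both marks under each alternative run on the shares of regions. In all, 81 alternative values stayed within the interval of the reported one and 29 did not. The lost share of H2A.Z fell to 35.5% at a ratio cutoff of 5 and 8.60% at 10, where 0.0924% were gained. With the start 5 Mb later, 0.330% of H2A.Z regions were gained, 0.688% of the changed ones, and leaving out each 5-Mb window gave 0.330% to 0.933% gained and 0.688% to 2.03% of changed, the lowest without 30 to 35 Mb. For H2A.Zac, the lost, gained and gained-of-changed shares were 41.1%, 5.86% and 12.5% at a cutoff of 5, 22.3%, 1.30% and 5.49% at 10, and 49.7%, 5.31% and 9.65% in regions of at least 500 bp. By base pairs 5.95% were gained, 11.2% of the changed. At 50% coverage, 51.5% of lost and 53.0% of unchanged H2A.Zac regions lay on H2A.Z, and at 1 bp 65.8% of the unchanged. The cutoff alternatives call fewer regions by construction, and for the others the cause was not tested. No paired analysis was possible because the deposited lists come from merged replicates, and for the same reason no replicate could be left out. The depth is unknown, so whether a region without a call lacked reads could not be examined.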

Other observations

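Promoter regions of lineage markers on all chromosomes were listed as a check on the cell label. Of 8 erythroid genes, 3 had an H2A.Z and 7 an H2A.Zac region at a start, with none at GATA1. Of 6 genes of other blood lineages, 3 had an H2A.Z and 4 an H2A.Zac region. Over all protein-coding genes, 67.0% had an H2A.Z and 69.1% an H2A.Zac region at a start. Of those listed promoters, 12.5% lost and 22.8% gained H2A.Z, and 20.3% lost and 47.9% gained H2A.Zac. The marker counts were not tested against these shares. Among the marker genes, EPOR lost H2A.Z at 6.31 and gained H2A.Zac at 12.2, and TAL1 gained H2A.Zac at 7.28. EBF1, a B cell factor gene, gained H2A.Z at 10.3 and H2A.Zac at 16.9, the highest ratios among these 14 genes, and PAX5 lost H2A.Zac at 4.26.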
